A study of Mus musculus with 4 samples.

Results

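The data described here are the counts of 9 genes of calmodulin signalling in nuclei of the mouse hippocampus: the calmodulin genes Calm2 and Calm3, the kinase genes Camk2a, Camk2b, Camk2d, Camk4 and Camk1d, and the genes of the small calmodulin-binding proteins Pcp4 and Nrgn. They were found by Ensembl ID and are 9 of the 55422 gene IDs of the deposited matrices. They were chosen by their counts per class and in free RNA and by their differences between Kat6a-cKO and Control in earlier results of the same libraries, so that these differences are given as a description and the tests on them are not independent evidence. Single-nucleus RNA sequencing with the 10x Genomics Chromium kit, which marks each captured molecule with a droplet barcode and a unique molecular identifier (UMI), was done on adult hippocampus. The 2 Control libraries came from Kat6a-f/f mice, whose Kat6a gene carries loxP sites, and the 2 Kat6a-cKO libraries from mice with NEX-cre and Kat6a-f/f. Kat6a-f/f is thus shared by both groups, and the control group carried no Cre, so that Cre and the loss of Kat6a cannot be told apart. NEX-cre is a Cre gene at the Neurod6 locus, which is active in forebrain excitatory neurons, and it directs the deletion to those cells. The comparison addresses what differs in the hippocampus of mice whose gene for the histone acetyltransferase KAT6A is targeted in these neurons, which the title of the series links to RSPO2 and Wnt signalling in CA3.

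Calmodulin is a small calcium sensor that several genes encode as one and the same protein. Loaded with calcium, it switches on the calcium/calmodulin-dependent kinases: CaMKII, a large multi-subunit enzyme built from the products of Camk2a, Camk2b and Camk2d and needed for synaptic potentiation in the hippocampus, CaMKIV, a mostly nuclear kinase that phosphorylates CREB, and CaMKI delta, the product of Camk1d. Pcp4 (PEP-19) and neurogranin (Nrgn) bind calmodulin through an IQ motif and set how fast and how much calcium it takes up, and Nrgn messenger RNA is carried into dendrites.

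Total counts were 186897245 and 183440076 for the Control libraries, 177249737 and 171323466 for Kat6a-cKO. At least 5000 UMIs were held by 8258 and 7961 Control barcodes and by 8442 and 7911 of Kat6a-cKO, and libraries shared 15 to 20 of them pairwise. They were clustered without the 9 genes and named from marker genes, and glial classes were taken from barcodes with at least 1000 UMIs. A class name such as CA3 stands for nuclei that are CA3-like by these markers, and all 7 classes that were tested (CA3, CA1, dentate granule, inhibitory neurons, astrocytes, oligodendrocytes and oligodendrocyte precursors, OPC) had 6 of 6 markers raised. UMIs of the Cre transgene were counted in CA3 nuclei as 0 and 0 in Control against 40 and 54 in Kat6a-cKO, which matches the labels. In dentate granule nuclei they were 0 and 0 against only 5 and 6. That is 0.144 and 0.189 CPM in Kat6a-cKO, against 2.25 and 2.67 in CA3. Kat6a itself was counted over the whole gene, not over the deleted part alone. It stood at 62.8 and 65.6 CPM in CA3 of Control against 59.4 and 65.2 in Kat6a-cKO and checks nothing. In dentate granule nuclei Kat6a had 93.4 and 94.8 against 87.5 and 88.2 CPM, and in free RNA 82.5 and 81.9 against 60.3 and 62.5 (log2 −0.53, edgeR adjusted p = 0.0236). Neurod6, the locus that holds the Cre, had 69.0 and 62.9 CPM in CA3 of Control against 50.9 and 42.5 in Kat6a-cKO. In dentate granule nuclei it had 10.9 and 14.8 against 6.78 and 6.99 (log2 −0.89, edgeR adjusted p = 0.0412). CPM here are the UMIs of a gene in a class, scaled to a common class total as in the usual unit of that name. Each library was taken as 1 replicate, and p-values measure only the spread between libraries.

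RNA outside nuclei was read from barcodes of 100 to 900 UMIs, called free RNA here. Control had 70816 and 71042 such barcodes, Kat6a-cKO 71409 and 73544. Their median UMI count was 512 and 547 in the Control libraries against 411 and 385 in those of Kat6a-cKO, and the latter were the lower ones throughout. What such barcodes contain besides free RNA was not examined, and nuclei of few UMIs could be among them. A 'barcode without a nucleus' or 'empty barcode' below thus stands only for a barcode of 100 to 900 UMIs. Markers of microglia summed to 2718 to 2980 CPM in these barcodes in Control and to 2508 to 3093 in Kat6a-cKO. In astrocyte nuclei they summed to 401 to 438 and 345 to 377. Since gene lengths differ, CPM levels are compared between classes and genotypes, not between genes.

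Positions are those of GENCODE M21 on mm10 (GRCm38). Calm2 spans chr17:87433412-87446935 on the minus strand, Calm3 chr7:16915379-16924114 on the minus strand and Nrgn chr9:37544492-37552904 on the minus strand; the gene ID of Calm2 matched that release without its version number. These are the short genes of the set, with spans of 13.5, 8.74 and 8.41 kb. Pcp4 spans 58.2 kb on the plus strand of chromosome 16, of which 98.2% is intron, and it overlaps Igsf5 on the same strand. Camk2b covers 96.7 kb on chromosome 11, Camk2a 62.5 kb and Camk4 256 kb, Camk2d 250 kb on chromosome 3 and Camk1d 421 kb on chromosome 2. Camk2d overlaps 8 annotated transcripts of other genes, the antisense RNA Gm15551 among them, Camk4 overlaps the antisense RNA 2310026I22Rik, and Camk1d overlaps the processed pseudogene Gm13216 on the opposite strand. The counting strand is not given in the sources used here, so reads of such partners cannot be told apart from those of the gene.

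The calmodulin genes encode one protein with different codons, which decides whether their reads can be told apart. Over the 450 coding bases of the GENCODE M21 transcripts, Calm2 and Calm3 were identical at 372 and differed at 78 (82.7% identity). Their longest identical run was 17 bases, and the whole transcripts shared 0 stretches of 31 bases. A stretch of the coding sequence, 60 bases from base 58 of the start codon on, shows the pattern, with the 11 bases that differ in capitals.
Calm2: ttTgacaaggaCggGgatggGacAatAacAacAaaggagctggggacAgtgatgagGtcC
Calm3: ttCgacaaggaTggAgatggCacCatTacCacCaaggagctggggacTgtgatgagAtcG
Copies of these genes elsewhere in the genome were not examined.

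Calm2, Calm3, Pcp4 and Nrgn all had a far higher level in free RNA than in nuclei. The level of Calm2 in free RNA was 3048 and 3371 CPM in Control against 2080 and 2618 in Kat6a-cKO. In CA3 nuclei it was 180 and 216 in Control against 164 and 172 in Kat6a-cKO, a mean log2 ratio to free RNA of −3.91 ± 0.18 (SD, n = 4 libraries), or 0.0665 times its level. No Calm2 level in any library of a nuclear class came near that of free RNA. Calm3 had 909 and 1036 CPM in free RNA of Control and 737 and 889 in Kat6a-cKO, against 38.4 and 48.6 and then 30.0 and 34.0 in CA3, and a log2 ratio of −4.58 ± 0.12. Nrgn had 2554 and 2771 CPM in free RNA of Control and 1954 and 2282 in Kat6a-cKO. In CA3 its levels were 163 and 179 in Control against 143 and 145 in Kat6a-cKO, a log2 ratio of −3.92 ± 0.10. Neurogranin is a protein of excitatory neurons, yet its highest mean level over the 4 libraries was in microglia (481 ± 125 CPM) and its lowest in inhibitory neurons (76.2 ± 17.1 CPM).

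Pcp4 had the lowest ratio to free RNA of the 9 members in CA3, CA1, dentate granule nuclei and inhibitory neurons; in OPC that of Nrgn was lower (−3.47 against −3.43). It had 1189 and 1221 CPM in free RNA of Control and 953 and 1022 in Kat6a-cKO. In CA3 nuclei it had 23.4 and 26.1 CPM in Control against 17.1 and 19.0 in Kat6a-cKO, and in CA1 nuclei 32.5 and 38.5 against 23.5 and 21.8. The mean log2 ratio to free RNA was −5.69 ± 0.11 in CA3, 51.6-fold lower, and −5.27 ± 0.24 in CA1. Among the 14881 genes with a ratio in CA3, only 0.134% had a lower one, and the median over them was −0.43. Pcp4 is known as a gene of CA2 neurons and dentate granule cells. Here the CA2 level of 27.1 ± 7.43 CPM (mean and SD over the 4 libraries) lay within the range of CA1 (29.1 ± 7.85), and that of dentate granule nuclei was 58.8 ± 15.2.

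Counted per barcode, Pcp4 in several classes was close to its count in barcodes of 100 to 900 UMIs. A barcode of 100 to 900 UMIs held on average 0.603 and 0.664 Pcp4 UMIs in Control against 0.391 and 0.387 in Kat6a-cKO. A CA3 nucleus held 0.657 and 0.675 in Control against 0.408 and 0.464 in Kat6a-cKO, an inhibitory neuron 0.684 and 0.677 and then 0.397 and 0.387, and a microglial nucleus 0.654 and 0.677 and then 0.409 and 0.486. These classes differ widely in total UMIs, while their Pcp4 UMIs per barcode lay close together within each library. Of the 11 classes, 7 were above the barcodes without a nucleus in every library (CA3, CA1, CA2, dentate granule, inhibitory neurons, OPC and microglia), some by a very small margin in replicate 2 of Kat6a-cKO. Dentate granule nuclei held 0.820 and 0.947 in Control against 0.519 and 0.567 in Kat6a-cKO, and CA2 nuclei 0.675 and 1.125 and then 0.620 and 0.655. A CA1 nucleus held 0.635 and 0.689 and then 0.418 and 0.388, less than CA2 in each library. Mossy cells varied more, with 0.5 and 1.10 and then 0.56 and 0.863, and only in replicate 1 of Control were they below the barcodes without a nucleus. If each nucleus took up as much free RNA as the median barcode of 100 to 900 UMIs holds, free RNA would supply from 68.2% (CA2, with 59.4% to 90.1% over the libraries) to 101% (astrocytes) of the Pcp4 count of the 11 classes, on average, with 72.4% in dentate granule nuclei. The same sum gave 43.0% to 89.8% for Calm3, 24.6% to 88.7% for Calm2 and 27.5% to 95.5% for Nrgn, with the lowest share in pyramidal neurons and the highest in glia for each. An amount of free RNA set by markers of other classes instead gave far larger shares, in CA3 170% for Calm3, 109% for Calm2, 109% for Nrgn and 369% for Pcp4, more than was counted, so the amount of free RNA in a nucleus is not settled by these data.

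**Figure D1:**
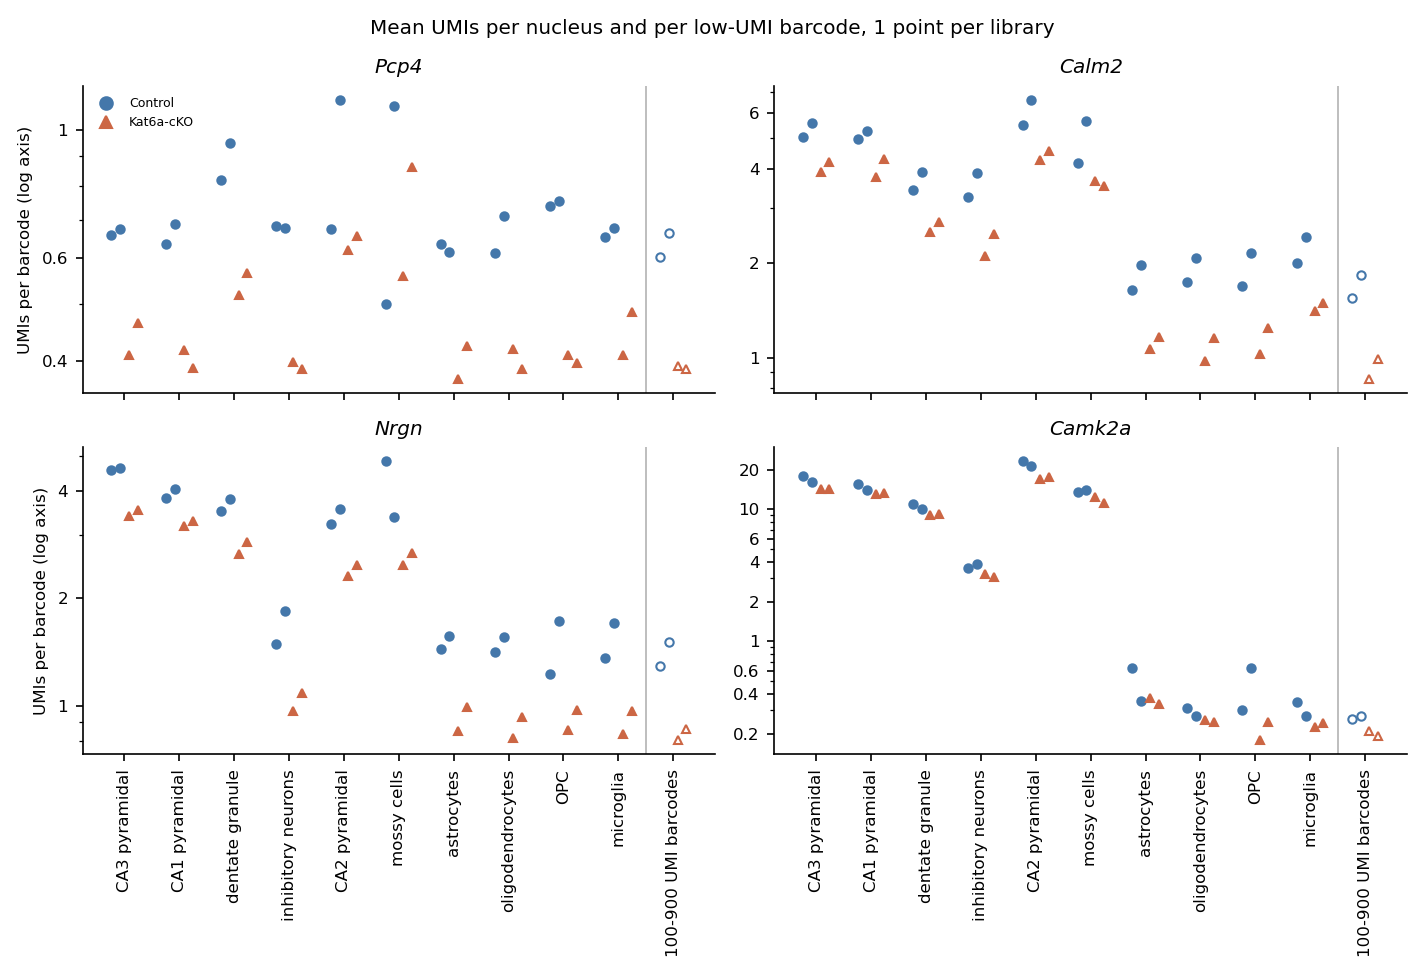
Mean UMIs per barcode (log axis) of Pcp4, Calm2, Nrgn and Camk2a by class of nuclei, with barcodes of 100 to 900 UMIs as open symbols on the right. Points are libraries (circles Control, triangles Kat6a-cKO). Pcp4 stays near the open symbols in most classes, whereas Camk2a is at 9.09 to 23.1 UMIs in CA2, CA3, CA1, mossy and dentate granule nuclei and close to the open symbols in oligodendrocytes and microglia.

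Calm2 was above the barcodes without a nucleus in excitatory and inhibitory neurons, and Nrgn mainly in excitatory ones. A CA3 nucleus held 5.05 and 5.59 Calm2 UMIs in Control against 3.90 and 4.19 in Kat6a-cKO, whereas a barcode without a nucleus held 1.55 and 1.83 and then 0.854 and 0.991. An inhibitory neuron held 3.25 and 3.87 and then 2.10 and 2.47, and free RNA at the median amount would supply 44.3% of its Calm2 count, against 41.1% in dentate granule nuclei; by the markers of other classes the shares were 251% and 101%. An oligodendrocyte nucleus held 1.75 and 2.08 and then 0.971 and 1.16, close to the empty barcode of the same library. Glia were not all alike: free RNA at the median amount would supply 60.6% to 77.9% of the Calm2 count in microglia over the libraries, against 87.2% to 89.4% in oligodendrocytes. Nrgn had 4.58 and 4.62 UMIs per CA3 nucleus in Control against 3.39 and 3.54 in Kat6a-cKO. In inhibitory neurons it had 1.50 and 1.84 and then 0.966 and 1.09, close to the 1.30, 1.51, 0.802 and 0.864 UMIs of the barcodes without a nucleus. In counts per barcode Nrgn thus had the excitatory pattern that its CPM level did not have.

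The CaMKII gene Camk2a stood in contrast. The alpha subunit gene Camk2a had 641 and 621 CPM in CA3 of Control and 598 and 589 in Kat6a-cKO, 802 and 777 and then 734 and 750 in CA1, and 868 and 823 and then 782 and 785 in dentate granule nuclei. In free RNA it had 512 and 496 and then 514 and 506 CPM, below each of these neuron classes. Over 16 classes and clusters its mean level was highest in dentate granule nuclei (815 ± 40.4 CPM), with ranges over the libraries that overlapped those of CA1 (766 ± 30.0), whose range in turn overlapped that of CA2 (696 ± 47.7). CA3 (612 ± 23.6) did not overlap its neighbours, but its highest library (640.86) all but met the lowest of CA2 (640.93). The lowest levels were in oligodendrocytes (74.2 ± 2.05) and OPC (60.6 ± 30.1), which overlapped. In oligodendrocytes and microglia the counts per barcode were close to those of free RNA. An oligodendrocyte nucleus held 0.312 and 0.274 Camk2a UMIs in Control against 0.254 and 0.246 in Kat6a-cKO, a barcode without a nucleus 0.260 and 0.270 and then 0.211 and 0.192. An astrocyte nucleus held more, 0.626 and 0.351 and then 0.375 and 0.333, so that free RNA at the median amount would supply 58.5% on average (41.9% to 77.3%), and in OPC that share ran from 43.2% to 119%. Inhibitory neurons, at 3.57 and 3.83 and then 3.24 and 3.09 UMIs per nucleus, lay between the groups of classes.

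Camk2b, the gene of the actin-binding beta subunit, was likewise highest in dentate granule nuclei, at 643 ± 54.8 CPM over the 4 libraries. Unlike Camk2a it was higher in free RNA than in pyramidal nuclei, with 697 and 716 CPM in Control against 590 and 667 in Kat6a-cKO, 1.63-fold above CA3 and 1.64-fold above CA1, and these values overlapped those of dentate granule nuclei. Among the nuclei it came next in a cluster led by Igfbpl1 and Sox11 (564 ± 71.1), whose range overlapped that of the dentate granule nuclei, and then in CA3 (410 ± 32.6), CA1 (406 ± 30.3) and CA2 (402 ± 38.9), which overlapped one another. Oligodendrocytes had the lowest level (88.1 CPM, from 67.6 to 108). Across the 7 tested classes the mean levels of Camk2a and Camk2b had a Pearson r of 0.97, and those of Calm3 and Pcp4 an r of 0.98, whereas Nrgn had 0.76 with Calm3 and 0.72 with Pcp4. The classes share libraries and differ in depth, so these are descriptions. By the same measure over 6606 genes, those most like Camk2a were Wipf3, Kcnab2 and 4933412O06Rik (r from 0.99 to 1.00), and those most like Pcp4 were Rpsa, Rplp1 and Spcs1 (1.00 each), of which Rpsa and Rplp1 encode ribosomal proteins. Calm3 was most like Skp1a, Rps14 and Scand1 (1.00 each), Calm2 like Brk1, Snw1 and Med1 (0.99), Nrgn like Arpc3, Arl1 and Bmp1 (0.97 to 0.98), Camk2b like Chrm1, Nol9 and Srsf9 (0.99), Camk4 like Emb, Cacna2d3 and Sarm1 (0.98 to 0.99), Camk2d like Rab2b, Tmx1 and Hivep1 (0.96 to 0.98) and Camk1d like Pxn, Stk3 and Gpm6b (0.88 to 0.95).

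The delta subunit gene Camk2d had the widest range over classes, 168-fold between the highest and lowest means. The lowest mean, 2.35 CPM, was so low that this fold is only a rough figure. Its level in microglia was 394 ± 18.6 CPM, above all other classes in every library. A cluster led by Vwc2l and Sntb1 (242 ± 41.6), astrocytes (204 ± 23.5) and mossy cells (177 ± 24.7) followed with overlapping neighbours, and inhibitory neurons (127 ± 9.98) overlapped OPC (104 ± 14.9). Dentate granule nuclei were at 7.50 ± 0.86 and the Igfbpl1 and Sox11 cluster at 2.35 ± 0.48. Free RNA held 26.0 and 24.9 CPM in Control against 39.3 and 32.1 in Kat6a-cKO, so that astrocytes lay 6.76-fold above it and dentate granule nuclei 4.03-fold below. Its levels ran against those of Camk2a and Camk2b over the 7 tested classes, with r values of −0.74 and −0.82.

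Camk4, the gene of the CREB kinase CaMKIV, was highest in CA2 nuclei, with 670 and 605 CPM in Control against 577 and 624 in Kat6a-cKO. No library of any other class or cluster reached these levels. A cluster led by Foxp2 and Dpp10 (431 ± 38.1), one led by Vwc2l and Sntb1 (319 ± 23.9) and the Igfbpl1 and Sox11 cluster (261 ± 8.14) followed, each separate from its neighbours. CA3 was at 190 ± 14.9 CPM with a range that overlapped that of mossy cells (218 ± 17.4), and CA1 (143 ± 22.4) overlapped inhibitory neurons (128 ± 9.04). Dentate granule nuclei had 58.8 and 47.6 CPM in Control against 59.5 and 48.1 in Kat6a-cKO, below the 62.8, 62.3, 74.8 and 72.9 CPM of free RNA, while CA3 was 2.79-fold above free RNA. In microglia the count per nucleus was mostly near that of a barcode without a nucleus. It was 0.045 and 0.033 UMIs in Control and 0.032 and 0.031 in Kat6a-cKO, against 0.032, 0.034, 0.031 and 0.028. Free RNA at the median amount would supply 71.1% to 103% of it over the libraries.

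Camk1d, the gene of CaMKI delta, was the exception among the kinases. Its UMIs made up 1.04% and 0.98% of all free RNA in Control and 0.96% and 0.69% in Kat6a-cKO, or 10407, 9776, 9587 and 6948 CPM. In CA3 nuclei it had 1979 and 1943 CPM in Control against 1871 and 1796 in Kat6a-cKO, above CA1 (1108 ± 67.0) and dentate granule nuclei (1068 ± 151). Microglia were higher still, at 2846 and 2977 and then 2811 and 2191 CPM. Per barcode the order was another one: a CA3 nucleus held 55.7 and 50.2 and then 44.6 and 43.8 Camk1d UMIs, a microglial nucleus 7.92 and 7.82 and then 6.67 and 4.90, and a barcode without a nucleus 5.28 and 5.32 and then 3.93 and 2.63.

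**Figure D2:**
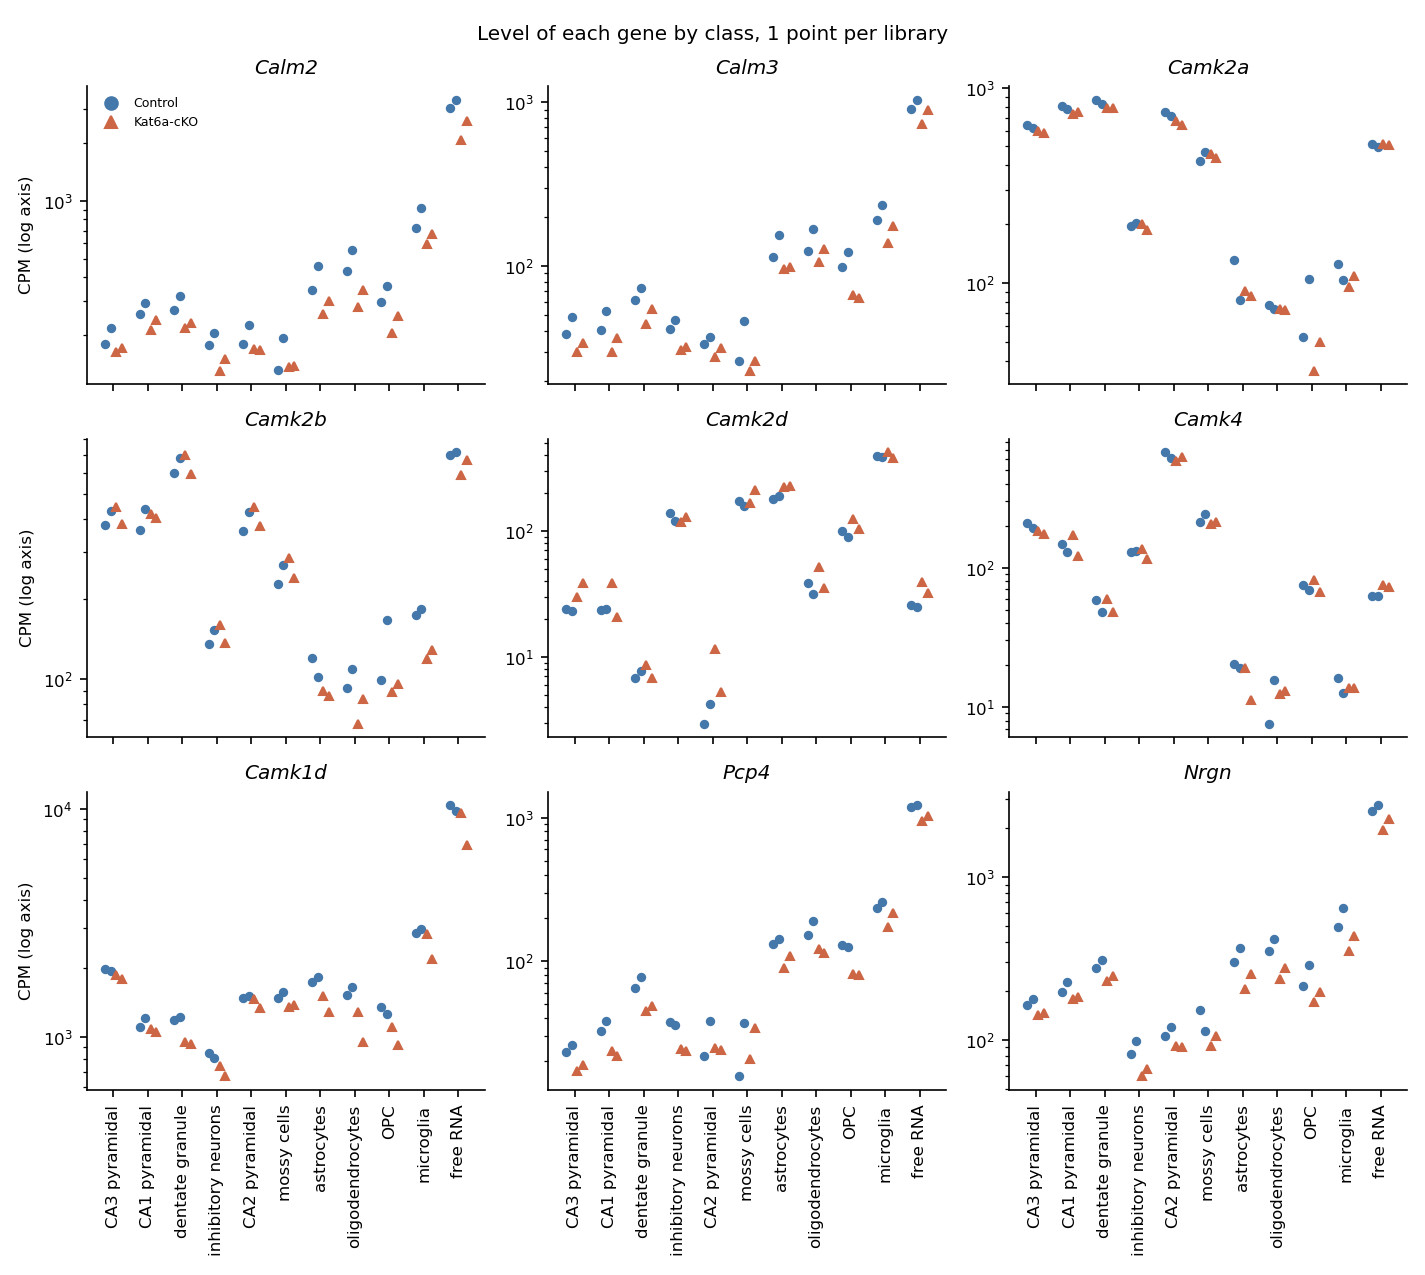
Level of each of the 9 genes in CPM (log axis) by class of nuclei and in free RNA, 1 point per library (circles Control, triangles Kat6a-cKO). Calm2, Calm3, Pcp4, Nrgn and Camk1d are highest in free RNA, Camk2b is as high there as in dentate granule nuclei, Camk2a is highest in dentate granule nuclei at 782 to 868, Camk4 in CA2 nuclei and Camk2d in microglia.

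Nuclear RNA is known to hold many unspliced transcripts, and long genes with much intron are usually better represented in it than short ones. In dentate granule nuclei the median log2 ratio to free RNA rose from −1.87 over 3684 genes under 10 kb to 1.15 over 604 genes over 300 kb. Nrgn (−3.17) and Calm3 (−3.94) lay below the median of the genes of their span, and so did Calm2 (−3.42 against −0.78) and Pcp4 (−4.25 against 0.00 for 30 to 100 kb). Camk2b (−0.05) was close to that median and Camk2a (0.68) above it. Camk2d (−2.01) and Camk4 (−0.35) were below the 0.43 of genes of 100 to 300 kb. Camk1d was furthest from genes of its length among these kinase genes. With −3.10 in dentate granule nuclei and −2.26 in CA3, its highest value over the 7 tested classes, it lay far below the median highest value of the 604 genes over 300 kb, which was 2.65. That comparison was chosen after the values had been seen.

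**Figure D3:**
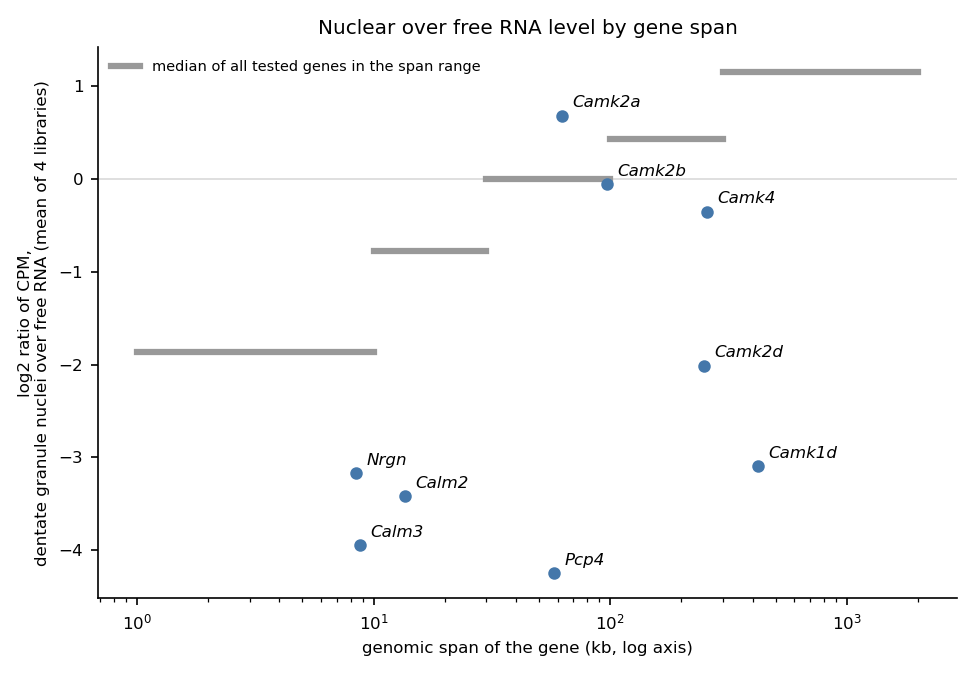
Log2 ratio of the level in dentate granule nuclei to that in free RNA (mean of 4 libraries) against the genomic span of each gene in kb (log axis). Points are the 9 genes and grey bars the medians of all tested genes by span, from −1.87 under 10 kb to 1.15 over 300 kb; Camk2d and Camk1d, at −2.01 and −3.10, are the long genes far below their bars.

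The share of nuclei with at least 1 UMI gave the same order in many classes, but not in all, once depth was made equal. Each barcode was thinned to 1000 UMIs, which left out no barcode of these classes. Camk2a was then found in 53.5% of dentate granule nuclei, 52.4% of CA1, 44.6% of CA3 and 16.2% of inhibitory neurons. In oligodendrocytes, where its count per barcode was close to that of free RNA, it was found in 7.3%. Camk4 was found in 16.5% of CA3 nuclei, 4.7% of dentate granule nuclei and 1.2% of microglia, and Camk2d in 31.7% of microglia and 0.72% of dentate granule nuclei. Some classes apart in mean CPM had shares within each other's spread. Cajal-Retzius neurons had 363 CPM of Camk2a against 196 in inhibitory neurons. Their thinned shares were 16.1 ± 7.4% and 16.2 ± 1.4% (SD over the 4 libraries), the former from 22 to 34 nuclei per library. Mossy cells, with 30 to 51 nuclei per library, had 218 CPM of Camk4 against 190 in CA3. Their thinned shares were 15.9 ± 4.9% and 16.5 ± 2.0%. Unthinned, the shares were 99.7% of dentate granule nuclei and 22.5% of oligodendrocytes for Camk2a, 93.4% of CA3 nuclei and 3.2% of microglia for Camk4, and 57.4% of microglia and 6.2% of dentate granule nuclei for Camk2d. Pcp4 was found in 2.0% of CA3, 6.2% of dentate granule and 20.4% of microglial nuclei, against 39.4%, 47.6% and 40.7% unthinned, so its thinned share was highest in a class whose Pcp4 count per barcode was close to that of barcodes without a nucleus, and no expression is read from that share.

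Kat6a-cKO was next set against Control within each class, with edgeR's quasi-likelihood test on the class sums and Benjamini-Hochberg adjustment over all genes tested. One member passed the threshold of 0.05. Pcp4 in dentate granule nuclei had 64.5 and 77.6 CPM in Control against 44.6 and 48.3 in Kat6a-cKO, without overlap, and fell by 0.60 on the log2 scale (SE 0.09, edgeR adjusted p = 0.0272). Over all 17317 genes tested there, 66 passed (0.381%), 62 of them lower. The call ended when only genes of at least 10 CPM were tested (adjusted p = 0.0592, log2 −0.60) and when the free RNA of a barcode without a nucleus was subtracted from each nucleus (adjusted p = 0.582, log2 −0.63), a setting under which 1 of 16782 genes was called (0.00596%). In free RNA Pcp4 had a log2 difference of −0.39 (SE 0.12, adjusted p = 0.0685), and the median UMI count of barcodes of 100 to 900 UMIs was lower in Kat6a-cKO, as given above. The difference between the change in dentate granule nuclei and that in free RNA, −0.23 (SE 0.09), had an adjusted p of 0.18 in the same kind of fit.

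The other members of the group that is rich in free RNA had values of the same sign in dentate granule nuclei and did not pass. Calm2 had 269 and 319 CPM in Control against 216 and 231 in Kat6a-cKO (log2 −0.38, SE 0.08, edgeR adjusted p = 0.0808). Calm3 had 61.7 and 73.7 against 44.5 and 54.4 (−0.44, SE 0.10, adjusted p = 0.129). Nrgn had 275 and 310 against 229 and 245 (−0.29, SE 0.07, adjusted p = 0.125). Camk1d had 1184 and 1213 against 949 and 927 (−0.34, SE 0.06, adjusted p = 0.0559). The groups did not overlap in any of these genes. With DESeq2 in place of edgeR 5 of the 9 members were called in this class, where 2.53% of the 8924 genes to which DESeq2 gave an adjusted p were.

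In CA3, the region named in the title, 0 of 9 members passed in edgeR, where 0.0324% of 15443 genes did. At an unadjusted p under 0.05 there were 5 of 9, against 1214 of all genes, and DESeq2 called 0 members and 0.191% of its genes. In CA1 0 of 9 passed, with 0.0117% of 17049 genes (unadjusted 4 of 9, against 1395 genes; DESeq2 1 of 9 and 1.03%). In inhibitory neurons 0 of 9 passed, with 0.0273% of 14678 genes (unadjusted 5 of 9, against 967 genes; DESeq2 1 of 9 and 0.166%). In astrocytes 0 of 9 members and 0% of 11130 genes passed (unadjusted 6 of 9, against 697 genes; DESeq2 0 of 9 and 0.018%). Oligodendrocytes had 0 of 9 and 0.00856% of 11689 genes (unadjusted 5 of 9, against 876; DESeq2 0 of 9 and 0.0171%), and OPC 0 of 9 and 0% of 10041 genes (unadjusted 7 of 9, against 657; DESeq2 0 of 9 and 0%). The simulation given below found few log2 changes of 0.5 in astrocytes, oligodendrocytes and OPC. In CA3, CA1 and inhibitory neurons it found 50 of 196, 55 of 197 and 43 of 196 of them, so most were missed there too. The lack of calls in these classes, neuronal and glial, thus says little about changes of that size. In free RNA 0 of 9 passed, although 8.57% of 19093 genes did (unadjusted 6 of 9, against 5769; DESeq2 6 of 9 and 18%).

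The members rich in free RNA were lower in both Kat6a-cKO libraries than in both Control libraries in nearly every class. That held for Calm2, Pcp4, Nrgn and Camk1d in all 7 classes and in free RNA, and for Calm3 in 6 of the 7 classes and in free RNA, with oligodendrocytes as the exception. Counting all 9 members, both Kat6a-cKO libraries were below both Control libraries for 7 in CA3, where 20.8% of all genes were. The numbers were 6 in dentate granule nuclei (21.7% of all genes), 6 in CA1 (21.9%), 7 in OPC (21.1%), 7 in astrocytes (21.6%), 5 in oligodendrocytes (19.4%), 5 in inhibitory neurons (20.7%) and 6 in free RNA (20.2%). The members were proposed with these contrasts in view, so the counts are a description. The median log2 difference over the 9 members was −0.16 in CA3, −0.29 in dentate granule nuclei, −0.09 in CA1 and −0.37 in free RNA, while that over all genes tested lay between −0.01 and 0.00 in each of these fits.

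In CA3 Pcp4 had the values given above and a log2 difference of −0.44 (SE 0.11, edgeR adjusted p = 0.247), and Calm3 one of −0.43 (SE 0.11, adjusted p = 0.257). In CA1 Pcp4 was at −0.63 (SE 0.10, adjusted p = 0.187). In inhibitory neurons, which NEX-cre does not target, Pcp4 had 37.3 and 36.0 CPM in Control against 24.5 and 23.5 in Kat6a-cKO (−0.59, SE 0.11, adjusted p = 0.0824). Nrgn in the same class had 81.7 and 97.7 against 59.6 and 65.9 CPM (−0.50, SE 0.09, adjusted p = 0.0892), and Calm2 177 and 205 against 130 and 150 (−0.44, SE 0.09, adjusted p = 0.101). Oligodendrocytes had −0.65 for Calm2 (SE 0.13, adjusted p = 0.145), −0.57 for Nrgn (SE 0.12, adjusted p = 0.177) and −0.51 for Pcp4 (SE 0.13, adjusted p = 0.193). The estimates of Calm2 in CA3, CA1 and dentate granule nuclei (−0.23, −0.27 and −0.38) and of Nrgn there (−0.24, −0.20 and −0.29) were nearer to 0 than those in inhibitory neurons and oligodendrocytes, and whether they differ was not tested for these classes. Estimates of Calm2, Nrgn and Pcp4 had the same sign in CA3, CA1, dentate granule nuclei, inhibitory neurons and oligodendrocytes. In which of these nuclei Kat6a was deleted was not examined, and the cause of the shared sign was not tested. The amount of free RNA per barcode moved in the same direction in the same libraries. The part of free RNA in these values was not tested beyond the subtraction given above.

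**Figure D4:**
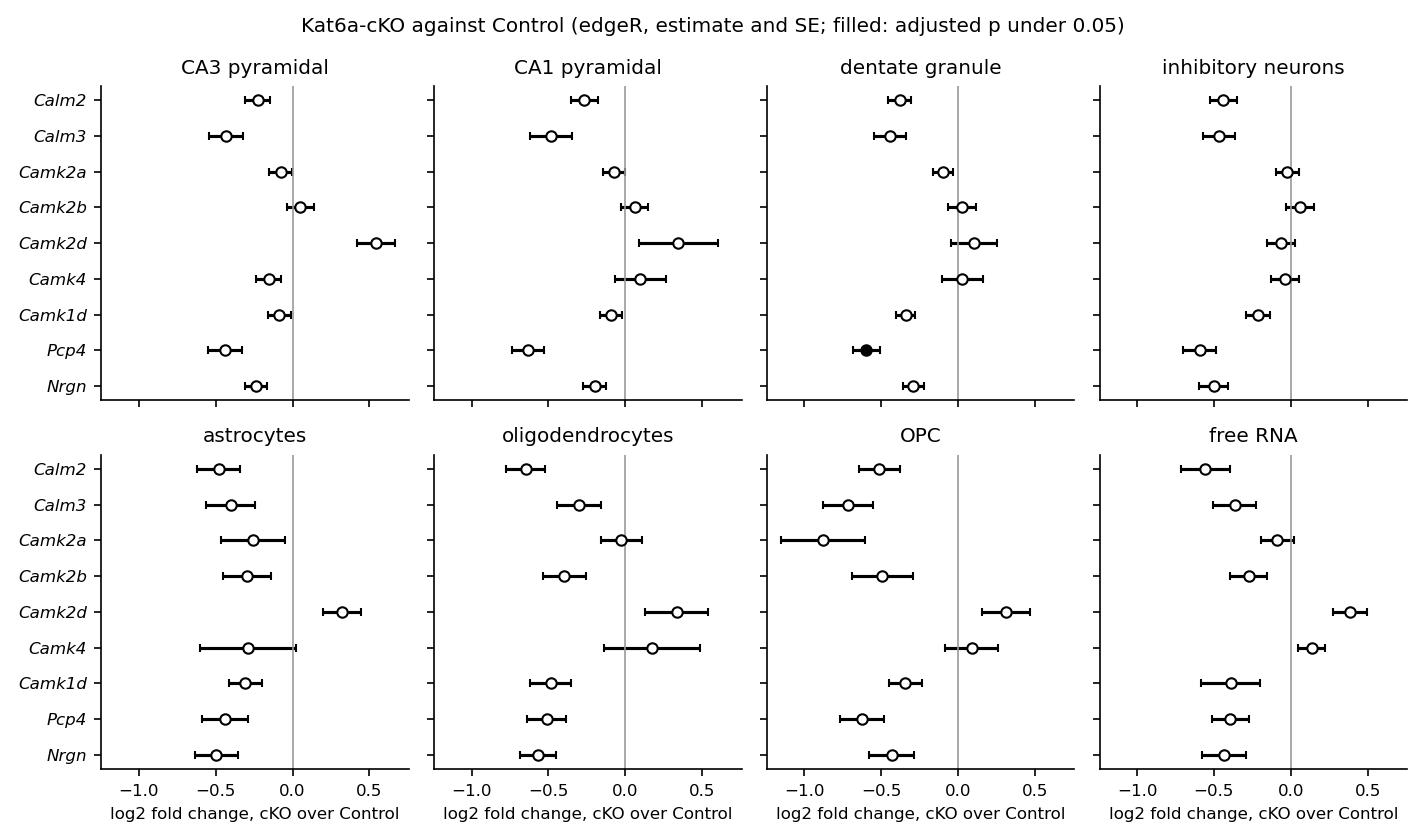
Log2 fold change of Kat6a-cKO over Control with its SE for the 9 genes in 7 classes and in free RNA (edgeR on 2 against 2 libraries). The filled point, Pcp4 in dentate granule nuclei at −0.60, is the only one with an adjusted p under 0.05; Pcp4, Calm2, Calm3, Nrgn and Camk1d lie left of 0 in every panel and Camk2d lies right of 0 in all but inhibitory neurons.

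Camk2a and Camk2b did not pass the test in any class in the fits reported here. Under some alternatives Camk2a passed in OPC, and Camk2b in OPC and oligodendrocytes, but neither did in CA3, CA1 or dentate granule nuclei. In the 3 large excitatory classes Camk2a had log2 differences of −0.10 in dentate granule nuclei (SE 0.07), −0.08 in CA3 (SE 0.07) and −0.07 in CA1 (SE 0.07), with edgeR adjusted p-values of 0.7, 0.879 and 0.849. In all 3 the Kat6a-cKO libraries lay below the Control libraries, and the fitted changes were −6.62% in dentate granule nuclei, −5.30% in CA3 and −5.02% in CA1. Camk2b, with 380 and 429 CPM in CA3 of Control and 445 and 384 in Kat6a-cKO, overlapped in each of these classes, and its estimates ran from 0.03 to 0.06. Outside these classes the estimates were larger for some: in OPC Camk2a had 53.0 and 104 CPM in Control against 35.4 and 49.8 in Kat6a-cKO, without overlap (−0.88, SE 0.27), and Camk2b had −0.49 in OPC, −0.40 in oligodendrocytes and −0.30 in astrocytes, each without overlap. The OPC values rest on replicate 2 of Control, without which they were −0.34 for Camk2a and −0.084 for Camk2b. Camk4 in CA3 had 210 and 192 CPM in Control against 183 and 175 in Kat6a-cKO, without overlap (−0.16, SE 0.08, adjusted p = 0.718), and in CA1 148 and 130 against 172 and 122, with overlap (0.10, SE 0.17, adjusted p = 0.923).

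Camk2d had positive estimates in 6 of the 7 classes and in free RNA; in inhibitory neurons its estimate was −0.064. In CA3 it had 24.0 and 23.3 CPM in Control against 29.7 and 38.5 in Kat6a-cKO, without overlap (log2 0.54, SE 0.12, edgeR adjusted p = 0.218). In astrocytes it had 180 and 188 against 222 and 227 CPM (0.32, SE 0.12, adjusted p = 0.735), in OPC 99.3 and 88.8 against 124 and 103 (0.31, SE 0.16, adjusted p = 0.771), and in free RNA 26.0 and 24.9 against 39.3 and 32.1 (0.38, SE 0.11, adjusted p = 0.0594). None of these passed the threshold, but the call of Camk2d in free RNA and in CA3 depended on the setting. Its estimates over the alternatives were all positive, from 0.26 to 0.53 in free RNA and from 0.36 to 0.70 in CA3. Calls over all genes depended on the setting too. With the replicate block they rose from 8.57% to 26% in free RNA and from 0.0324% to 2.13% in CA3. In CA1 the 23.6 and 23.8 CPM of Control stood against 38.8 and 20.8 in Kat6a-cKO, so that replicate 1 of Kat6a-cKO alone was high (0.35, SE 0.26, adjusted p = 0.785).

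Within CA1 and CA3 the level of Camk2d depended on the cluster. Of the 2 CA3 clusters, number 4 had 27.5 and 28.2 CPM in Control against 36.7 and 46.8 in Kat6a-cKO, and number 13 had 5.1 and 6.0 and then 3.7 and 5.0. Cluster 13 made up 17.6% and 23.2% of CA3 nuclei in Control against 23.4% and 21.1% in Kat6a-cKO. In CA1 the clusters 28 and 12 held most Camk2d. Cluster 28 had 76.8 and 94.8 CPM in Control against 164 and 115 in Kat6a-cKO and made up 1.4% and 1.8% of CA1 nuclei in Control against 5.4% and 1.7% in Kat6a-cKO, so that its share was highest in the library whose CA1 level of Camk2d was high. Cluster 12 had the opposite sign, with 114 and 103 against 77.3 and 82.4 CPM, and cluster 3, the largest, had 2.4 and 3.3 against 1.7 and 2.7. These are values of clusters within a class and were not tested. Camk4 followed cluster 28 as well, at 247 and 267 CPM in Control against 406 and 199 in Kat6a-cKO.

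**Figure D5:**
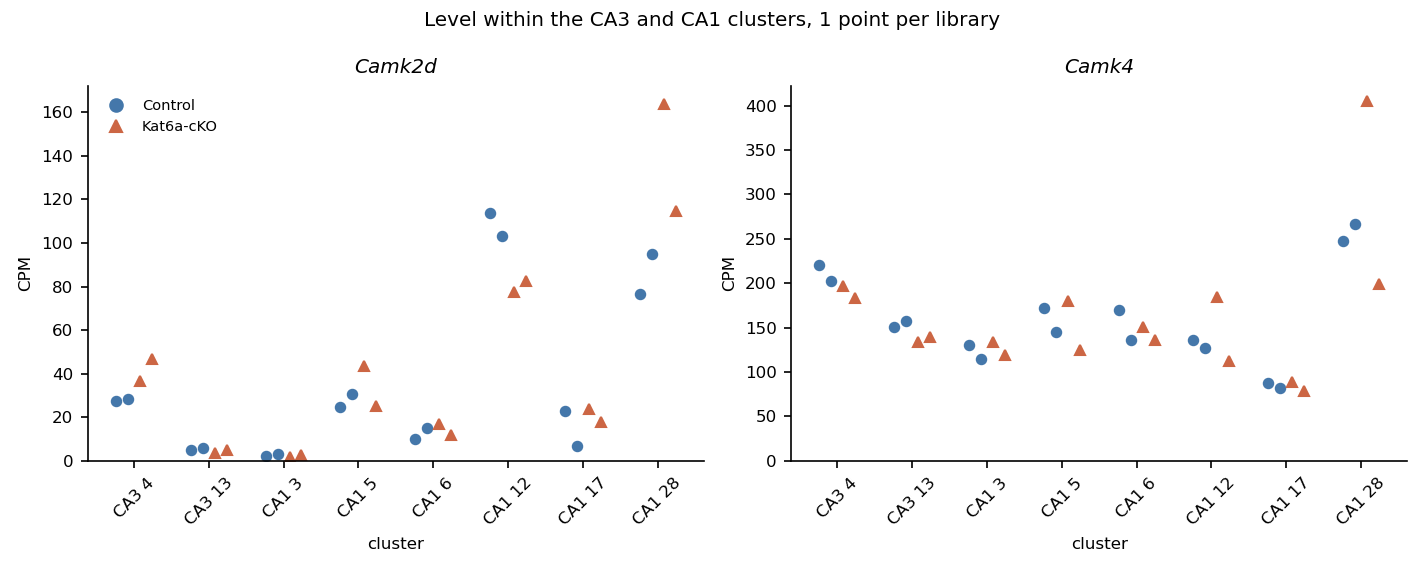
Level of Camk2d and Camk4 in CPM within the 2 CA3 clusters and the 6 CA1 clusters, 1 point per library (circles Control, triangles Kat6a-cKO). Camk2d is highest in CA1 clusters 12 and 28 and stays at 3.3 or below in CA1 cluster 3.

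A term for class by genotype, with the library as a block, tested if the genotype difference of a member was unequal in a pair of classes. Between CA3 and CA1, 0 of 9 members passed in edgeR (0 at an unadjusted p under 0.05, against 977 of 17286 genes), with 0.0983% of all genes, between CA3 and dentate granule nuclei 0 of 9 (4 unadjusted, against 959 of 17554), with 0.0798%, and between CA1 and dentate granule nuclei 0 of 9 (1 unadjusted, against 1259 of 18162), with 0.033%. DESeq2 was not run on these interactions. The lowest value was that of Camk1d, which was 0.24 higher in CA3 than in dentate granule nuclei (SE 0.05, adjusted p = 0.122). For Pcp4 the difference of CA3 from dentate granule nuclei was 0.14 (SE 0.10, adjusted p = 0.955).

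The change in each class was also set against that in free RNA. There 0 of 9 members passed for CA3 (5 at an unadjusted p under 0.05, against 3001 of 19022 genes), where 2.86% of all genes did, 0 of 9 for CA1 (5 unadjusted, against 3274 of 19967), with 2.55%, and 0 of 9 for dentate granule nuclei (3 unadjusted, against 3405 of 20101), with 2.87%. Calm2 was 0.33 above free RNA in CA3 (SE 0.09, adjusted p = 0.0516) and 0.28 in CA1 (SE 0.08, adjusted p = 0.0769). Camk1d was 0.32 above it in CA3 (SE 0.09, adjusted p = 0.053), and Camk2b 0.33 above it in CA1 (SE 0.10, adjusted p = 0.0824). Pcp4 in CA3 was −0.05 from it (SE 0.10, adjusted p = 0.871).

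Other genes of calcium and calmodulin signalling came from a list of 48 that was chosen with earlier results of these data known. In CA3 0 of 45 passed (11 at an unadjusted p under 0.05), where 0.0324% of all genes passed and 1214 of 15443 did so unadjusted. In CA1 it was 0 of 47 (7 unadjusted), with 0.0117% of all genes and 1395 of 17049 unadjusted. In free RNA 6 of 47 passed (8.57% of all genes did there, so the list's count is read as no result about the list). Adcy8, an adenylyl cyclase gene, rose by 0.60, and the kinase kinase gene Camkk1 (−0.53), the calcineurin subunit gene Ppp3r1 (−0.51), Marcksl1 (−0.52), the inositol kinase gene Itpka (−0.46) and the calcium buffer gene Calb1 (−0.40) fell. The change against that in free RNA passed for 4 of 47 list genes in CA3 (2.86% of all genes), 3 in CA1 (2.55%) and 5 in dentate granule nuclei (2.87%). Ppp3r1 was among them each time, 0.59, 0.51 and 0.45 above free RNA. In CA3 the others were Pde1c (−0.52) and the calcium sensor genes Ncald (0.42) and Vsnl1 (0.40), in CA1 Adcy8 (−0.59) and Camkk1 (0.49), and in dentate granule nuclei Adcy8 (−0.57), Ncald (0.42), Camkk1 (0.46) and Calb1 (0.39).

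Summed levels of markers of other cell types were set beside these values. In dentate granule nuclei, 3 of 16 lists of other types had a summed level that was lower in both Kat6a-cKO libraries, where 21.7% of all single genes were, and 3 a higher one; microglial markers, 6 in number, summed to 180 to 207 CPM in Control and 148 to 155 in Kat6a-cKO. In CA3 5 lists were lower (20.8% of all single genes) and 0 higher. Inhibitory neurons had 3 lower (20.7%) and 2 higher, and oligodendrocytes 2 lower (19.4%) and 4 higher. In free RNA 11 of 17 were higher and 1 lower (20.2% of all single genes were lower). Astrocyte markers there were at 743 to 962 CPM in Control and 1077 to 1318 in Kat6a-cKO. The share of single genes that were higher was not counted, so the numbers of higher lists are read as no result. The mitochondrial share of free RNA was 0.777% and 0.794% in Control against 0.932% and 0.921% in Kat6a-cKO, whereas that of dentate granule nuclei was 0.146% and 0.165% against 0.139% and 0.121%. The part of these differences in the values of the members was not tested.

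The sequences before the start sites of Pcp4, Nrgn and Calm3, 3 of the members that are rich in free RNA, are shown because CREB, a target of CaMKIV, and the GC-box factors bind short motifs there. They were chosen after their values had been seen. They are the 250 bases before the RefSeq start (build GRCm38.p6), 5′ to 3′ on the strand of the gene, with matches on either strand to TGACG, the half-site of the cAMP response element, or to GGGCGG, the GC box, in capitals. The motifs do not share bases with each other in these stretches.
Pcp4 (chr16:96467356-96467605, plus strand): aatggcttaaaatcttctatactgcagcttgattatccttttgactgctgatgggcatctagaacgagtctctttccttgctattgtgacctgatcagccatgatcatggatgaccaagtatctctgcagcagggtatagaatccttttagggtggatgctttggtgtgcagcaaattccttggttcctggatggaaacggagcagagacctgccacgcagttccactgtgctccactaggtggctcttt
Nrgn (chr9:37552746-37552995, minus strand): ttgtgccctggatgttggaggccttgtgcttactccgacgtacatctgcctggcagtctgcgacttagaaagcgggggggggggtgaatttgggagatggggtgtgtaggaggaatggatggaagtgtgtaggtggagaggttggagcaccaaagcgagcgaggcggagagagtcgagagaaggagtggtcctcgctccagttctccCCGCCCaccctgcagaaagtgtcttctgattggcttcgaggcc
Calm3 (chr7:16924033-16924282, minus strand): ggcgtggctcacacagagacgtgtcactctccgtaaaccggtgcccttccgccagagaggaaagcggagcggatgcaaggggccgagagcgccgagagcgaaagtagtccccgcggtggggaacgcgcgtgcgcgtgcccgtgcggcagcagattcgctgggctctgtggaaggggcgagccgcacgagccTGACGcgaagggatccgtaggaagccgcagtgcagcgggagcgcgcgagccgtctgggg
Pcp4 held 0 matches to either motif and 3 CpG dinucleotides, Nrgn 1 GC box and 11 CpG, and Calm3 1 half-site, 0 GC boxes and 33 CpG. Among 32851 RefSeq promoter stretches of the same length, 17.8% held the half-site and 32.7% the GC box. No motif was held by all 3 genes. Camk1d, also rich in free RNA, has 2 RefSeq starts, whose stretches held 2 GC boxes and 1, and neither held the half-site. Promoter stretches were matched for 6 of the 9 genes.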

How the data were processed

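The deposited matrices hold unnormalized UMI counts (whole numbers) of every barcode seen in a library, those of empty droplets included. Per the submitters' processing notes the build was mm10 and Seurat 4.0.1 was used; the aligner, the annotation and the counting strand are not given in the sources used here. Doublets were called per library with Scrublet in scanpy 1.11.5 (expected rate 0.06) and left out. Clusters (Leiden in leidenalg 0.10.2, 2000 variable genes, 30 principal components, 15 neighbours, resolution 1, 39 clusters from 5000 UMIs) were made without the members and named by the marker list with the largest share raised 2-fold (3 markers and 50% as minimum). Counts were summed per library and class and tested with edgeR 4.0.16 in R 4.3.3 (glmQLFTest, TMM, filterByExpr, Benjamini-Hochberg over all genes); DESeq2 1.42.0 was an alternative. An exact permutation test of 2 against 2 libraries cannot give a p under 0.333 and was not used. Each SE given with an edgeR estimate was derived from the test, as the absolute log2 difference divided by the square root of the F statistic. Printed CPM values are scaled to the class total, without TMM. The test was tried on simulated data with known changes. For log2 changes of 1, it found 161 of 197 in dentate granule nuclei (17042 genes) and 145 of 199 in CA3 (15140 genes). For changes of 0.5, it found 75 of 197 (17007 genes) and 50 of 196 (15153 genes). Among unchanged genes it called 5 and 2 in these classes for changes of 1, and 6 and 3 for changes of 0.5. Of changes of 0.5 in glia it found only 1 of 197 in astrocytes, 12 of 197 in oligodendrocytes and 10 of 196 in OPC. For changes of 1 it found 100 of 195, 133 of 194 and 111 of 190 there. Of changes of 0.5 it found 55 of 197 in CA1 and 43 of 196 in inhibitory neurons. A lack of calls in the glial classes, CA3, CA1 or inhibitory neurons thus says little about changes of 0.5.

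The members and lists were chosen with earlier results of these data known. The rule named the 9 members, a gene of the pathway list where it passed the test, and the 3 genes most like each member. The 7 tested classes were those set in the design, each with at least 30 nuclei in every library. All other classes and clusters were described and not tested, although most of them, such as microglia with 389 to 616, also held that many. The result of the pathway list in dentate granule nuclei is not reported here.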

Additional observations from a re-analysis of the deposited data

How the results depend on the processing

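Of 975 member values under an alternative, 816 kept their sign and their side of the threshold, 117 came to pass it, 2 no longer passed and 40 changed sign. Over all genes, the 7 class fits called 0% to 2.53% with DESeq2, 0.262% to 1.92% without a filter, 0.0117% to 2.77% with the replicate block and 0% to 2.49% without 1 library, against 0% to 0.381% as reported. In free RNA they called 18%, 8.57%, 26% and 3.51% to 17.9%, against 8.57%, and 23% with a minimum of 10 CPM. For the differences from free RNA the shares were 2.45% to 3.71% without a filter and 0.0972% to 7.73% without 1 library. With DESeq2 5 members were called in dentate granule nuclei, 1 in CA1, 1 in inhibitory neurons and 6 in free RNA. With RLE size factors 1 was called in free RNA (8.98% of all genes), and with barcodes of 100 to 500 UMIs 2 (8.08%). With a minimum of 10 CPM the counts were 0 in dentate granule nuclei (0.467%), 2 in free RNA and 1 for CA3 against free RNA (9.35%). Without a filter they were 5 in dentate granule nuclei, 2 in CA3, 2 in CA1, 3 in OPC, 4 in oligodendrocytes, 4 in inhibitory neurons and 4 in free RNA, 1 for CA1 (0.927%) and 1 for CA3 (0.262%) against dentate granule nuclei, and 3, 3 and 1 for CA3, CA1 and dentate granule nuclei against free RNA. The labels do not say that the replicate numbers pair the libraries, and the deviations of same-numbered libraries had correlations of 0.02 to 0.26. With a replicate block 5 members were called in dentate granule nuclei, 3 in CA3, 5 in OPC, 5 in oligodendrocytes, 3 in astrocytes, 4 in inhibitory neurons and 7 in free RNA.

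Without 1 library at a time the counts ran from 1 to 4 in dentate granule nuclei, 0 to 3 in CA3, 0 to 3 in CA1, 0 to 5 in OPC, 0 to 2 in astrocytes, 1 to 3 in inhibitory neurons and 0 to 3 in free RNA. The highest count came without Control replicate 1 in dentate granule nuclei, CA3, OPC and astrocytes, without Kat6a-cKO replicate 2 in CA1 and inhibitory neurons, and without either of these in free RNA. The counts ran from 0 to 1 for CA3 against CA1 and against dentate granule nuclei (0.00533% to 1.47% of all genes in the fits between classes), 0 to 2 for CA3 and for dentate granule nuclei against free RNA and 0 to 3 for CA1 against free RNA; the group left with 1 library is then assumed to vary like the other.

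Subtracting free RNA in an amount set by markers of other classes took Calm3 and Pcp4 to 0 in all 7 classes, where no value could be given. It also took Calm2 and Nrgn to 0 in inhibitory neurons, astrocytes, oligodendrocytes and OPC. Values of Camk1d, Camk2a, Camk2b and Camk4 were lost in some classes as well. Only 26 of 63 member values could be given, and some of these rest on counts near 0. Calm2 and Nrgn in CA1 then came to log2 values of 14.31 and 13.60, the 2 members called there, which rest on Control libraries at 0 and are no measure of size; 0 members and 0% of all genes were called in dentate granule nuclei. Signs also changed for Camk1d in CA3 (0.084), CA1 (1.01) and dentate granule nuclei (0.15), Nrgn (0.97), Camk2d (−0.067) and Camk4 (−0.016) in dentate granule nuclei and Camk2a in inhibitory neurons (0.078). Subtracting the RNA of a barcode without a nucleus, added after the data had been seen, left 0 members and 0.00596% of all genes called in dentate granule nuclei and changed the sign of Pcp4 in CA3 (0.87), Camk1d in CA1 (0.023), Calm2 in astrocytes (1.00) and OPC (0.070), and Calm3 (0.87) and Camk2a (0.93) in oligodendrocytes. Camk2a was at 0.0098 in inhibitory neurons with doublets kept and at 0.030 in free RNA of 100 to 500 UMIs.

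Leaving out 1 library also changed signs. Camk2b ran from −0.075 to 0.17 in CA3, −0.034 to 0.16 in CA1, −0.12 to 0.15 in dentate granule nuclei and −0.081 to 0.19 in inhibitory neurons. Camk2d ran from −0.19 to 0.74 in CA1, −0.097 to 0.27 in dentate granule nuclei, −0.18 to 0.066 in inhibitory neurons and −0.015 to 0.59 in oligodendrocytes. Camk4 ran from −0.19 to 0.33 in CA1, −0.16 to 0.21 in dentate granule nuclei, −0.19 to 0.092 in inhibitory neurons, −0.80 to 0.010 in astrocytes, −0.26 to 0.71 in oligodendrocytes and −0.096 to 0.23 in OPC. Camk2a ran from −0.092 to 0.037 in inhibitory neurons, −0.55 to 0.19 in astrocytes and −0.10 to 0.055 in oligodendrocytes. The cause was not tested.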

Other observations

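Among all barcodes with at least 1000 UMIs, 1 cluster of 1861 barcodes (median 1140 UMIs) had Pcp4 among its 10 leading genes, beside Tmsb4x and genes of the respiratory chain. It held 661 and 953 barcodes in Control and 118 and 129 in Kat6a-cKO, and it could not be named because markers of several lineages were raised. The numbers of barcodes were not tested, and they come from the same libraries in which barcodes of 100 to 900 UMIs held fewer UMIs in Kat6a-cKO. In counts per nucleus Camk2a reached its highest value in CA2 nuclei, between 21.1 and 23.1 UMIs in the Control libraries and up to 17.6 in those of Kat6a-cKO, whereas in CPM it was highest in dentate granule nuclei. Camk4 was 20.7 and 17.9 UMIs per CA2 nucleus in Control and 14.5 and 17.1 in Kat6a-cKO, and free RNA at the median amount would supply 0.18% of it.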
